A study of Rattus norvegicus with 12 samples.

Results

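The signal of 9 genes of cell junctions was followed in rat lung: the claudins Cldn3, Cldn4, Cldn5, Cldn7 and Cldn18, occludin (Ocln), zonula occludens 1 (Tjp1), junctional adhesion molecule A (F11r) and E-cadherin (Cdh1). They were chosen by name, as the genes to which the RefSeq accession of a probe pointed, and each was read from its most intense detected probe. All 9 were found among the 14737 genes with a symbol and a probe, and all 9 were well above background on each of the 12 arrays. They were covered by 10 probes, since Tjp1 had 2.

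The arrays came from a rat model of chronic obstructive pulmonary disease (COPD), in which cigarette smoking (CS) was combined with lipopolysaccharide (LPS), a bacterial cell wall component that provokes inflammation. Total RNA of lung tissue from male Sprague–Dawley rats of 8 to 12 weeks was hybridised to Agilent one-colour arrays, with 3 arrays in each of 4 groups. Rats of the CS + LPS group breathed smoke up to day 30 and received LPS into the trachea on days 5 and 19. The CS + LPS + NaHS group also received the hydrogen sulfide donor NaHS, and the CS + LPS + PPG group the inhibitor PPG, which blocks the hydrogen sulfide producing enzyme CTH, by intraperitoneal injection before exposure. In the control group air and saline took the place of smoke and LPS, and lungs were taken 24 h after the last smoke exposure. The RNA came from the left upper lobe with all its cell types, the 3 exposed groups shared both CS and LPS, and no group with NaHS or PPG alone was analysed here. The labels number the replicates but do not say which rats they came from, so that the p-values measure the spread between these samples.

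Tight junctions seal the space between neighbouring epithelial and endothelial cells. Claudins and occludin are membrane proteins that span it, F11r is an immunoglobulin-like adhesion molecule beside them, and Tjp1 is the scaffold under the membrane that ties them to actin. Adherens junctions lie just below, where E-cadherin of one cell binds E-cadherin of the next and is linked to actin through catenins. In lung, Cldn18 is characteristic of alveolar epithelium, Cldn3, Cldn4 and Cldn7 of alveolar and airway epithelium, and Cldn5 of endothelium, with some in the epithelium.

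Sequence at a transcript start of 3 of the genes is shown because E-cadherin and several other junction genes are textbook targets of the Snail family, repressors that bind the E-box letters CAGGTG, and because the family member Snai2 passed the fold change threshold in the NaHS group, as given with the other junction genes. RefSeq windows of build GRCr8, from 250 bases before to 50 bases after the transcript start that the table uses, were at hand for 7 of the 9 genes, but not for Cldn4 and Cdh1. In Cldn3, Cldn5, Cldn7 and F11r that start was the outermost one of the annotated gene. It lay 491 bases inside the gene in Cldn18, 1009 in Ocln and 179658 in Tjp1, so these windows do not describe the outermost start. The letters CAGGTG, or CACCTG for the other strand, stood in 4 of the 7 windows, and in 18.8% of all 33469 windows. Cldn7 had 5 copies, a number reached by 4 of all windows, Ocln had 2, and Cldn3 and F11r had 1 each. The windows of Cldn5, of Cldn18 and of the inner start of Tjp1 held none. A match is a description of the letters and not a binding site. The 2 windows with more than 1 copy and that of Cldn5, without any, are printed 5′ to 3′ along the gene, with the E-box letters in capitals.
Cldn7 (chr10:55188420-55188719, plus strand): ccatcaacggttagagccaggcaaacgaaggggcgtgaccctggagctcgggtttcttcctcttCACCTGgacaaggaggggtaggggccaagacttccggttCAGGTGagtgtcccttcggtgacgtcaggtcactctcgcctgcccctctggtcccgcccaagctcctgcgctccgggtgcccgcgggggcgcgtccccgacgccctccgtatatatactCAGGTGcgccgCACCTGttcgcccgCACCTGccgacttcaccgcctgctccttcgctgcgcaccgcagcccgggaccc
Ocln (chr2:33441149-33441448, minus strand): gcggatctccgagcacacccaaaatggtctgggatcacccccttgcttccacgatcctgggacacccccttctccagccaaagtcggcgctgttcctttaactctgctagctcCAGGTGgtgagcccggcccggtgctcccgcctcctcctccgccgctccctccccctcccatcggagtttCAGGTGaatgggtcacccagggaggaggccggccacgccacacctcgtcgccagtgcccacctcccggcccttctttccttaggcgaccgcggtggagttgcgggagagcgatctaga
Cldn5 (chr11:95718549-95718848, minus strand): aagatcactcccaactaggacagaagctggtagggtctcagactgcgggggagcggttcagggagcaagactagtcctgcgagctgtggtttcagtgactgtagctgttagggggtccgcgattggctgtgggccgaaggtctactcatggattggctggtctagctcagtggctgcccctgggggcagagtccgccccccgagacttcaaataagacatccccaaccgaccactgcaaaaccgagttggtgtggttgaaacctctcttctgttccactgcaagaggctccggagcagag
In Cldn7 the copies began 186, 147, 28, 17 and 3 bases before the start, so that the last one ran across it, and none overlapped another. In Ocln they began 137 and 68 bases before its inner start. GC boxes, GGGCGG or CCGCCC for the other strand, stood in 5 of the 7 windows and in 33.1% of all windows.

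Values are given as log2 signal after each array was scaled by its 75th percentile, and a difference of 1 on this scale is a fold change of 2. The scaled signal of one probe cannot be set against that of another, so each gene is compared with itself. Of the markers of lung, 7 of 8 alveolar type 1 and 8 of 9 alveolar type 2 cell markers were detected, the exceptions being Rtkn2 and Abca3. One array stood apart. Control replicate 3 had the lowest unscaled 75th percentile, 1229 against 2110 to 3261 on the other arrays. It correlated with the other arrays at r of 0.936 to 0.957 over the detected probes, while no other pair was below 0.975. It held the lowest or the highest value of 59% of the detected probes, and of 6 of the 9 junction genes. The 3 CS + LPS arrays lay beside it on 1 slide, and the other 8 arrays were on another.

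E-cadherin was lower in every exposed lung than in every control lung. The control arrays read 13.63, 13.64 and 14.07, the CS + LPS arrays 13.36, 12.92 and 13.30, the CS + LPS + NaHS arrays 13.08, 13.42 and 13.47, and the CS + LPS + PPG arrays 12.99, 12.81 and 12.75. The highest exposed array, at 13.47, thus lay under the lowest control array, at 13.63, and CS + LPS replicate 2, at 12.92, was the only other exposed array as low as the PPG arrays. Of the 9 genes, Cdh1 alone separated the 9 exposed from the 3 control arrays in this direction. The same separation was seen in 3.68% of all detected probes.

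The fall of Cdh1 passed an adjusted p of 0.05 in the PPG group. Mean log2 signal was 12.85 ± 0.13 (SD, n = 3) in the CS + LPS + PPG group and 13.78 ± 0.26 (SD, n = 3) in the control group. The difference was −0.93 (SE 0.18, 95% confidence interval −1.32 to −0.53), a 1.9-fold lower signal, with an adjusted p of 0.0286 in limma. In the CS + LPS group Cdh1 averaged 13.19 ± 0.24, a difference from control of −0.59 (SE 0.18) with an adjusted p of 0.0979. In the CS + LPS + NaHS group it averaged 13.33 ± 0.21, a difference of −0.45 (SE 0.18) with an adjusted p of 0.252. Neither of the latter passed the adjusted threshold.

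The call in the PPG group was lost without any 1 of the PPG arrays. Without PPG replicate 1, 2 or 3 in turn, the difference was −1, −0.91 and −0.88 with adjusted p of 0.0776, 0.0869 and 0.102. Without control replicate 3 it was −0.78 with an adjusted p of 0.0435, and this is also its value within the slide that held the PPG arrays and control replicates 1 and 2. For the CS + LPS group, the within-slide value was −0.88 with an adjusted p of 0.00933, but there a single control array, replicate 3, stood against the 3 CS + LPS arrays. Without that array the difference was −0.44 and its adjusted p 0.193. For the NaHS group the within-slide difference was −0.31 with an adjusted p of 0.455.

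Neither treatment differed from CS + LPS in Cdh1 by either threshold. The CS + LPS + NaHS group was 0.14 higher than the CS + LPS group (95% confidence interval −0.26 to 0.53, adjusted p = 0.921). The CS + LPS + PPG group differed from it by −0.34 (95% confidence interval −0.73 to 0.06, adjusted p = 0.557). Both intervals include differences of either sign. The CS + LPS arrays and the treated arrays were on different slides. With slide as a block, which rests on control replicate 3, the differences were 0.58 for NaHS and 0.11 for PPG. The PPG difference thus changed sign, and neither was called.

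Epithelial content and inflammatory cells bear on a junction gene read in whole lung, where fewer cells of a type and less RNA per cell cannot be told apart. The summed scaled signal of 8 general epithelial markers, among them Epcam and the keratins Krt8 and Krt18, was 78466 to 96844 in controls, 68097 to 77901 in CS + LPS, 76445 to 77471 in CS + LPS + NaHS and 69681 to 81060 in CS + LPS + PPG lungs. All 8 were detected, and none passed either threshold in any of the 5 comparisons. Counted by sign, 7 of the 8 were below control in CS + LPS, 5 in CS + LPS + NaHS and 6 in CS + LPS + PPG lungs. Their median log2 differences were −0.26, −0.13 and −0.24, beside −0.04, 0.00 and −0.01 over all detected probes. Of 5 macrophage markers, 4 were above control in each exposed group. By either threshold 3, 1 and 2 were called for CS + LPS, NaHS and PPG, beside 5.51%, 2.69% and 7.25% of all probes. Of 6 lymphocyte markers, 6, 6 and 5 were above control, and 1, 1 and 2 were called. All 7 neutrophil markers were above control in each exposed group, and 0, 1 and 2 were called. The summed signal of 7 neutrophil markers was 7188 to 18272 in control and 12873 to 32454 in exposed lungs. That of 4 heart muscle markers was 38732 to 67135 in the PPG lungs, where Cdh1 was lowest, and 6271 to 86341 in controls. In CS + LPS lungs it was 12558 to 50288, and in CS + LPS + NaHS lungs 10198 to 52965. Control replicate 3 had both the highest of these sums, 86341, and the highest Cdh1 signal, 14.07. The summed signal of 3 fat markers was 1974 to 4085 in the PPG lungs and 809 to 1195 in CS + LPS lungs. It was 618 to 1157 in CS + LPS + NaHS and 565 to 6929 in control lungs. Of the 3 fat markers, 2 passed the fold change threshold for PPG against CS + LPS, beside 2.06% of all probes. The part of any of these in the Cdh1 values was not tested.

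**Figure D1:**
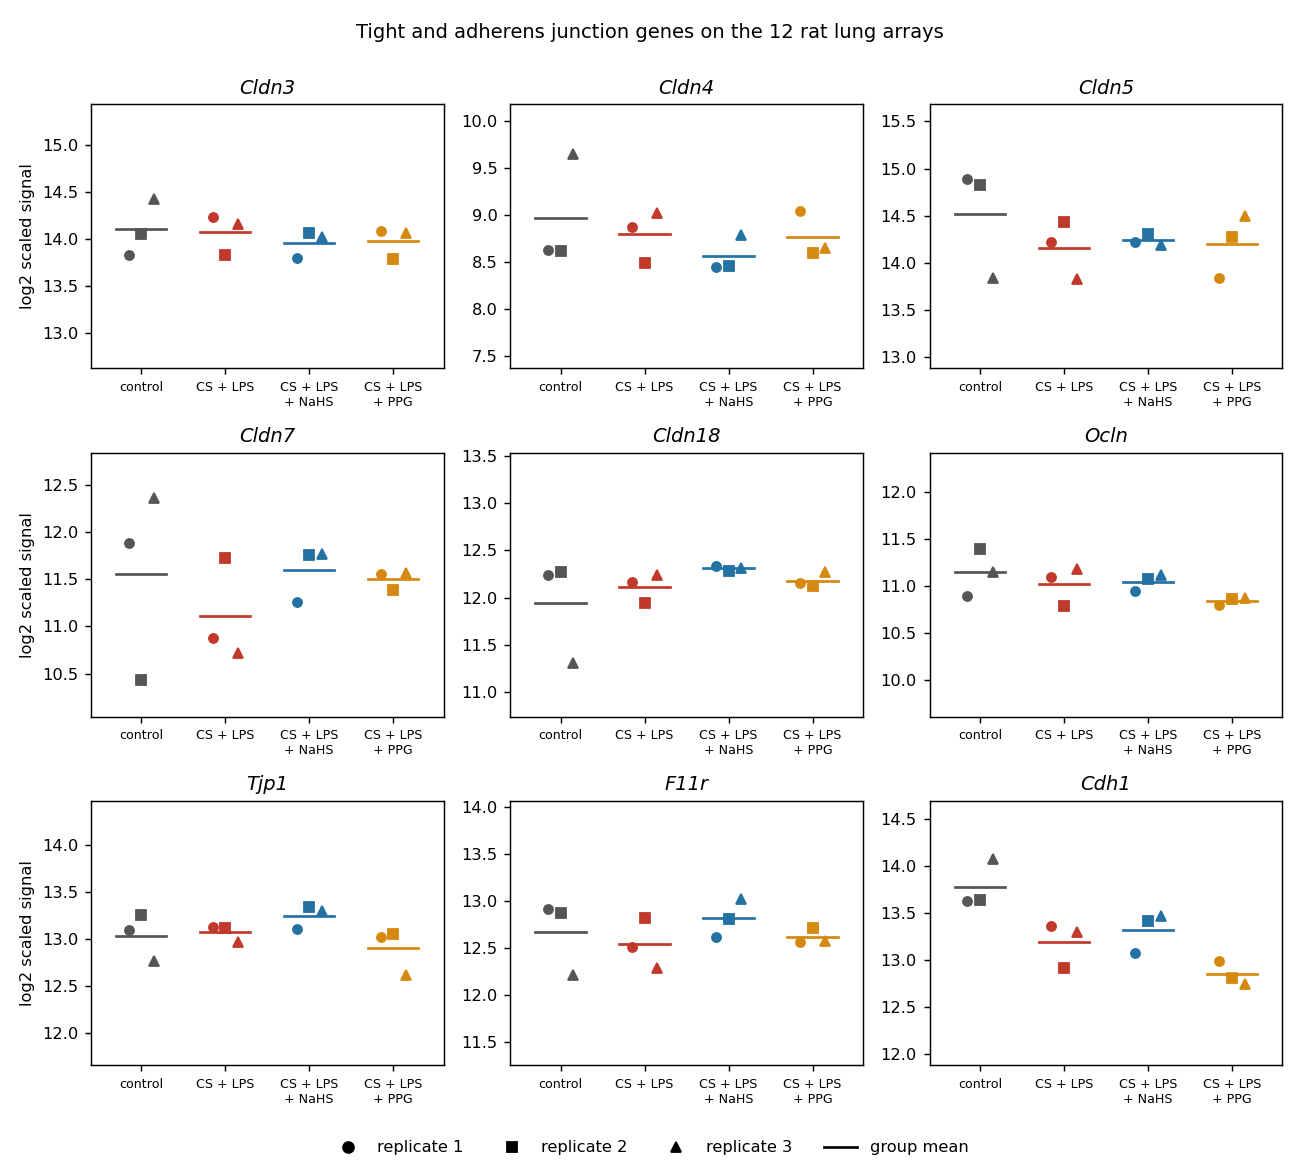
Scaled log2 signal (y axis) of the 9 junction genes on each of the 12 arrays, by group (x axis), with replicate 1 as a circle, 2 as a square and 3 as a triangle and the group mean as a line. Every panel spans the same log2 range. In the Cdh1 panel the exposed arrays, at 12.75 to 13.47, lie under the controls, at 13.63 to 14.07, and in the Cldn4, Cldn5 and Cldn18 panels control replicate 3 lies apart from the other controls.

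The claudins of alveolar and airway epithelium did not differ between groups by either threshold. Cldn3 was among the steadiest of the 9 genes. It read 13.83, 14.05 and 14.42 in controls, 14.23, 13.83 and 14.16 in CS + LPS, 13.80, 14.06 and 14.02 in CS + LPS + NaHS and 14.08, 13.79 and 14.06 in CS + LPS + PPG lungs. The groups overlapped, and its differences from control were −0.03, −0.14 and −0.13 (SE 0.18 each, adjusted p of at least 0.659).

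Cldn4, a neighbour of Cldn3 in the genome, read 8.63, 8.62 and 9.65 in controls, 8.87, 8.49 and 9.02 in CS + LPS, 8.45, 8.46 and 8.79 in CS + LPS + NaHS and 9.04, 8.60 and 8.65 in CS + LPS + PPG lungs. Control replicate 3 was 1.02 above the mean of the other controls, which were alike. The differences from control were −0.17, −0.40 and −0.20 (SE 0.27 each), and without control replicate 3 they were 0.17, −0.06 and 0.14, so that the CS + LPS and PPG differences changed sign. Cldn3 and Cldn4 varied together over the 12 arrays (r = 0.82, rho = 0.8), and with r = 0.68 over the 11 arrays without control replicate 3. Other pairs varied in opposite directions, among them Cldn4 with Cldn18 (r = −0.75), Cldn4 with F11r (−0.72) and Cldn3 with F11r (−0.66). Without control replicate 3 these were −0.01, −0.54 and −0.47. For Cldn7 with Ocln r was −0.46, and −0.71 without that array. These correlations are descriptions over arrays that share slides, groups and scaling.

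Cldn7 spread most. Its controls read 11.89, 10.43 and 12.36, a wider span than the other 8 genes had over all 12 arrays. The CS + LPS arrays read 10.88, 11.73 and 10.72, the CS + LPS + NaHS arrays 11.26, 11.76 and 11.77 and the CS + LPS + PPG arrays 11.56, 11.39 and 11.57. The CS + LPS group differed from control by −0.45 with a 95% confidence interval of −1.39 to 0.49, so that a fold change of 2 in Cldn7 lay within the interval. Without control replicate 2 the difference was −1.01 with an unadjusted p of 0.00657 in limma, past the fold change threshold, and an adjusted p of 0.0636. The copies of the E-box letters printed above for Cldn7 thus stand beside a gene whose group differences were smaller than the spread of its controls.

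Cldn18, of alveolar epithelium, was alike on 11 arrays and low on 1. It read 12.24, 12.27 and 11.31 in controls, 12.17, 11.94 and 12.24 in CS + LPS, 12.34, 12.28 and 12.31 in CS + LPS + NaHS and 12.15, 12.12 and 12.27 in CS + LPS + PPG lungs. Control replicate 3, at 11.31, was 0.94 below the mean of the other controls, and the remaining 11 arrays spanned 0.41. The NaHS group lay above all controls, with a mean difference of 0.37 (SE 0.22, adjusted p = 0.4). Without control replicate 3 the differences from control were between −0.14 and 0.06.

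Cldn5, the claudin of endothelium, was highest in 2 control lungs. Controls read 14.89, 14.83 and 13.84, CS + LPS arrays 14.22, 14.43 and 13.83, CS + LPS + NaHS arrays 14.22, 14.31 and 14.19 and CS + LPS + PPG arrays 13.84, 14.27 and 14.50. Control replicates 1 and 2 lay above all 9 exposed arrays, and control replicate 3 was 1.03 lower than their mean, at the bottom of the exposed range. The differences from control were −0.36, −0.28 and −0.32 (SE 0.28 each, adjusted p of 0.418, 0.609 and 0.463). Without control replicate 3 they were −0.70, −0.62 and −0.66, with adjusted p of 0.118, 0.246 and 0.0974. The summed signal of 8 endothelial markers was 116016 to 121428 in controls and 94687 to 123136 in exposed lungs. By adjusted p, 1 of the 8, Tek, was lower in CS + LPS and 2, Pecam1 and Sox17, were lower in CS + LPS + PPG lungs than in controls. The shares of all probes called in either direction were 2.04% and 4.61%. Counted by sign, 3 of the 8 markers were above control in CS + LPS, 5 in CS + LPS + NaHS and 5 in CS + LPS + PPG lungs. The median log2 differences of the 8 markers were −0.1, 0.14 and 0.14. Their part in the Cldn5 values was not tested.

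The remaining tight junction genes passed neither threshold. Occludin read 10.89, 11.39 and 11.15 in controls, 11.09, 10.79 and 11.18 in CS + LPS, 10.95, 11.07 and 11.12 in CS + LPS + NaHS and 10.80, 10.86 and 10.87 in CS + LPS + PPG lungs. The PPG group lay just under all controls, with a difference of −0.30 (SE 0.15, adjusted p = 0.212). Over the 12 arrays Ocln and Cdh1 varied together (r = 0.69, rho = 0.73), and without control replicate 3 r was 0.71.

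Tjp1, the scaffold, read 13.09, 13.25 and 12.76 in controls, 13.12, 13.11 and 12.97 in CS + LPS, 13.10, 13.34 and 13.29 in CS + LPS + NaHS and 13.02, 13.05 and 12.62 in CS + LPS + PPG lungs. The groups overlapped, with differences from control of 0.03, 0.21 and −0.13 (SE 0.16 each). Its second, dimmer probe gave −0.20, 0.02 and −0.36 (SE 0.21 each), so that the probes differed in sign for CS + LPS, and neither passed a threshold. F11r read 12.92, 12.87 and 12.21 in controls, 12.51, 12.82 and 12.29 in CS + LPS, 12.62, 12.81 and 13.02 in CS + LPS + NaHS and 12.56, 12.71 and 12.57 in CS + LPS + PPG lungs. Its differences from control were −0.13, 0.15 and −0.05 (SE 0.21 each). F11r was, like Cldn5, low on control replicate 3, by 0.69 against the other controls, and the pair varied together over the 12 arrays (r = 0.70, rho = 0.62; 0.63 without control replicate 3).

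Counted over the 9 genes, few calls were made. By the threshold of the methods, a fold change of at least 2 with an unadjusted p under 0.05, 0 of the 9 genes were called in any comparison. The shares of all detected probes called by this rule were 4.59% for CS + LPS, 2.67% for CS + LPS + NaHS and 4.38% for CS + LPS + PPG against control, and 1.71% for NaHS and 2.06% for PPG against CS + LPS. By adjusted p in limma, the count was 1 of 9 for CS + LPS + PPG against control, where 4.61% of all probes were called in either direction and 2.02% as lower. The count was 0 for CS + LPS against control, beside 2.04% of all probes, and 0 for CS + LPS + NaHS against control, beside 0.0989%. It was 0 for NaHS against CS + LPS, beside 0.598% of all probes, and 0 for PPG against CS + LPS, beside 0.518%.

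At an unadjusted p under 0.05 in limma, Cdh1 was the 1 gene of 9 called in each comparison with control. The shares of all probes past it were 25.2% for CS + LPS, 17.1% for CS + LPS + NaHS and 29.3% for CS + LPS + PPG against control. Against CS + LPS none of the 9 genes passed it, where 9.66% of all probes did for NaHS and 10.5% for PPG. At the same p, the methods' t-test called Cdh1 for CS + LPS and for CS + LPS + PPG against control, beside 11.6% and 17.5% of all probes. It called 0 of the 9 genes for NaHS against control, beside 11%, and 0 for NaHS and for PPG against CS + LPS, beside 12.8% and 10.3%. A count of 1 in 9 genes is too small to be told from these shares.

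**Figure D2:**
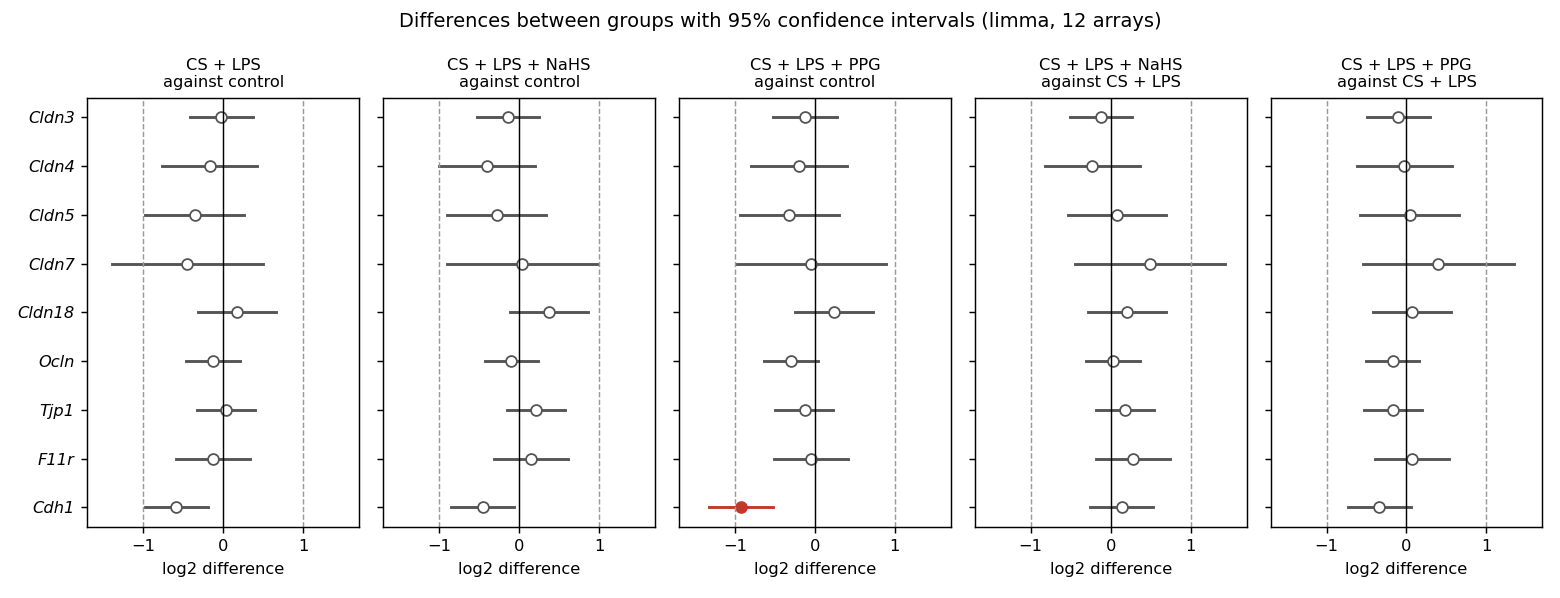
Log2 difference (x axis) of each of the 9 junction genes (y axis) in the 5 comparisons, with bars for the 95% confidence interval from limma over all 12 arrays. Dashed lines mark a fold change of 2, and the filled point, Cdh1 in CS + LPS + PPG against control at −0.93, is the only one with an adjusted p under 0.05.

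Control replicate 3 pulled the 9 genes in opposite directions. Against the mean of the other controls it was higher in Cldn7 by 1.20, in Cldn4 by 1.02, in Cldn3 by 0.47 and in Cdh1 by 0.44. It differed by −1.03 in Cldn5, −0.94 in Cldn18, −0.69 in F11r and −0.41 in Tjp1, and by 0.01 in Ocln. Markers of other tissue and of several lung cell types moved on the same array. The summed signal of 6 airway secretory cell markers, among them Scgb1a1, was 642825 on it and 254347 to 384935 on the other 11 arrays. That of 3 basal cell markers was 15975 against 6053 to 9522. The highest heart muscle sum, 86341, was also on it, against at most 7035 on the other controls. Alveolar type 2, ciliated, macrophage and mesothelium sums were highest there too, at 1341389, 155788, 313755 and 15855. On the other arrays they reached at most 1199803, 139279, 196142 and 9231. Smooth muscle and fat sums were also highest on control replicate 3, at 56181 and 6929, against at most 54897 and 4085 elsewhere. Neutrophil and lymphocyte sums were lowest there, at 7188 and 3734, against at least 12401 and 5159 elsewhere. Alveolar type 1 and endothelial sums lay within the range of the other arrays. A sum follows its brightest markers and need not hold for each marker. Of 5 macrophage markers, 4 were above control in the mean of each exposed group, though the sum was highest on this control array. Muc5b, Muc5ac and Krt5, which also define airway cells, were not detected. The part of any of these in the junction values was not tested.

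Slide and group can be told apart only through the controls, since all CS + LPS arrays were on the slide of control replicate 3 and all treated arrays on the other. With slide as a block, CS + LPS against control differed by −0.86 in Cldn4, 0.80 in Cldn18 and −0.88 in Cdh1, with adjusted p of 0.0192, 0.00283 and 0.00933 in limma. These 3 calls among 9 genes stood beside 41.5% of all probes called by adjusted p in the same fit. Cldn7 differed by −1.25 with an unadjusted p of 0.0352, the 1 call by fold change, beside 22.7% of all probes. The same fit turned Cldn5 to 0.32 and F11r to 0.33, neither past a threshold. It also made NaHS against CS + LPS −0.74 in Cldn18, with an adjusted p of 0.0225, beside 23% of all probes called. For PPG against CS + LPS it gave 1.00 in Cldn4 and −0.87 in Cldn18, with adjusted p of 0.0453 and 0.013, beside 22.5% of all probes called. Cldn7 was 1.69 above CS + LPS for NaHS and 1.6 above it for PPG, with unadjusted p of 0.0273 and 0.0346, beside 19.9% and 19.4% of all probes called by fold change. Each of these values takes the difference of control replicate 3 from the other controls as the difference between slides.

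**Figure D3:**
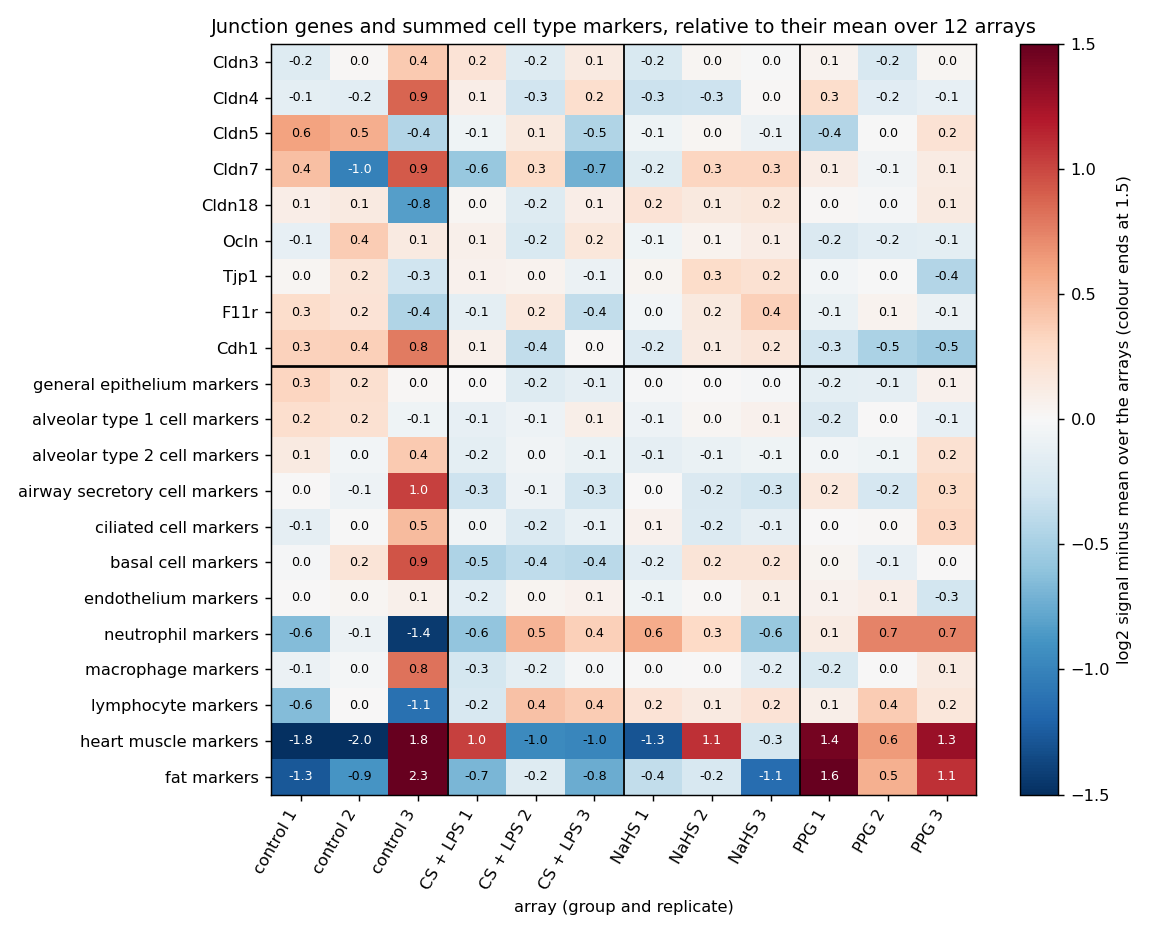
Log2 signal minus its mean over the 12 arrays for the 9 junction genes (upper rows) and for the summed signal of cell type markers (lower rows), 1 column for each array, red for above and blue for below the mean. On control replicate 3 Cldn4, Cldn7 and Cdh1 are red and Cldn18, Cldn5 and F11r blue, in the column where airway secretory, basal, heart muscle and fat markers are red.

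The Cdh1 pattern was shared by genes outside the junctions. Of 11145 other genes with a symbol and a detected probe, the 3 whose log2 signal was most like that of Cdh1 over the 12 arrays were Npr1, Map1b and Rgma, each at r = 0.97, with rho of 0.91, 0.97 and 0.90. Without control replicate 3, r was 0.95, 0.94 and 0.94 over 11 arrays. These arrays share groups and slides, and the 3 genes were the highest of all those compared. Npr1, a natriuretic peptide receptor, read 14.05, 14.12 and 14.37 in controls and 13.42 to 13.94 in exposed lungs.

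Other junction genes were taken from a list of 70, covering claudins, further tight junction membrane proteins, scaffolds, cadherins, nectins and catenins, desmosomes and the transcription factors that act on them. A probe was matched for 63 and 58 were detected. Among these, 42 were below and 16 above control in CS + LPS, 36 and 22 in CS + LPS + NaHS and 46 and 12 in CS + LPS + PPG lungs, counted by the sign of the difference. Of all 21239 detected probes, 11382, 10513 and 10775 were below control in the same comparisons. The median log2 difference of the 58 genes was −0.15, −0.06 and −0.28, beside −0.04, 0.00 and −0.01 over all detected probes. Called by either threshold were 2, 4 and 3 of the 58 genes, beside 5.51%, 2.69% and 7.25% of all probes, and for NaHS against CS + LPS 2 genes, beside 1.89%. The comparisons share the same 3 control arrays.

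Of the 9 other claudins detected, 2 passed a threshold for CS + LPS, 2 for CS + LPS + NaHS and 1 for CS + LPS + PPG against control, beside the same 5.51%, 2.69% and 7.25% of all probes. Cldn23 read 8.47, 8.47 and 9.50 in controls, 7.94, 7.55 and 7.88 in CS + LPS, 7.69, 7.71 and 7.79 in CS + LPS + NaHS and 7.89, 7.24 and 7.69 in CS + LPS + PPG lungs. All exposed arrays were below all controls. The differences from control were −1.02, −1.09 and −1.21 (SE 0.27 each), each past the fold change threshold, with adjusted p of 0.0745, 0.141 and 0.0406. Without control replicate 3 they were −0.68, −0.74 and −0.87, none past a fold change of 2, with an adjusted p of 0.0435 for the last. Cldn1, a barrier-forming claudin, passed the fold change threshold in the NaHS group, where it read 7.32, 7.51 and 7.45 against 8.38, 8.62 and 9.06 in controls (−1.26, SE 0.34, adjusted p = 0.146). NaHS against CS + LPS was −0.31 in Cldn1 (SE 0.34, adjusted p = 0.893). Cldn22, a dim probe, was 1.02 below control in the CS + LPS group, with controls at 5.13, 7.04 and 6.46. It lost the call without control replicate 2 (−0.61) or 3 (−0.90), and without CS + LPS replicate 2 (−1.04) or 3 (−0.85).

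Ildr1, a protein of the corners where 3 cells meet, was even in controls, at 8.65, 8.66 and 8.68. It read 8.18, 7.95 and 8.18 in CS + LPS, 7.59, 7.99 and 8.04 in CS + LPS + NaHS and 7.86, 7.68 and 7.86 in CS + LPS + PPG lungs. Every exposed array was lower than every control, with differences of −0.56, −0.79 and −0.86 (SE 0.14 each). The last passed the adjusted threshold (adjusted p = 0.0212), the first and second did not (0.0695 and 0.0903). Within slides the differences were −0.58, −0.78 and −0.85, the first with control replicate 3 as its only control array. Without PPG replicate 1, 2 or 3 the adjusted p in the PPG group was 0.0712, 0.0772 and 0.0732. The call in that group was lost in 7 of 24 settings, with an adjusted p of up to 0.136.

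Afdn, the afadin that ties nectins to actin at adherens junctions, read 12.75, 12.74 and 13.09 in controls, 12.67, 12.63 and 12.67 in CS + LPS, 12.44, 12.45 and 12.50 in CS + LPS + NaHS and 12.38, 12.44 and 12.10 in CS + LPS + PPG lungs. The PPG group was 0.55 below control (SE 0.13, adjusted p = 0.0466), and without control replicate 3 the difference was −0.44 with an adjusted p of 0.0681. Leaving out any array but control replicate 2 put the adjusted p above 0.05, up to 0.154 without PPG replicate 3. Counting by separation alone, 6 of the 58 listed genes had all 9 exposed arrays below all 3 controls, or 10.3%, beside 3.68% of all detected probes. These were Cldn23, Ildr1, Afdn, Lsr, Pard3 and Mpdz, of which the last 3 are named because of this count. Both shares depend on the same 3 control arrays.

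Endothelial cadherin and a Snail factor had a higher signal with NaHS by the fold change threshold. Cdh5, the VE-cadherin of endothelial adherens junctions, read 10.91, 11.29 and 11.47 in CS + LPS + NaHS lungs, against 9.80, 9.40 and 10.11 in CS + LPS lungs and 10.01, 10.56 and 9.87 in controls. It was 1.45 higher than in CS + LPS (SE 0.29, a 2.73-fold higher signal, adjusted p = 0.0604) and 1.08 higher than in controls (SE 0.29, adjusted p = 0.147), both past the fold change threshold. Against control it fell under that threshold without control replicate 3 (0.94) or NaHS replicate 3 (0.95). The CS + LPS + PPG arrays, at 10.77, 9.95 and 9.82, overlapped the controls. Of the 8 detected endothelial markers none passed either threshold for NaHS against CS + LPS, with a median difference of 0.08. At an unadjusted p under 0.05 in limma 2 of the 8 were higher and 0 lower, beside 9.66% of all probes in either direction. The summed signal of 3 pancreas markers was 2635 to 3993 in the NaHS lungs, 1631 to 1982 in CS + LPS and 1468 to 1803 in controls. Of the 3, 1, Ctrb1, was higher than in CS + LPS by adjusted p, beside 0.598% of all probes. The part of these markers in the values of Cdh5 and Snai2 was not tested.

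Snai2, also called Slug, a repressor of E-cadherin in other tissues, read 8.82, 8.70 and 9.23 in CS + LPS + NaHS, 7.43, 7.62 and 7.57 in CS + LPS and 7.92, 7.78 and 7.25 in control lungs. The CS + LPS + PPG arrays, at 8.72, 7.59 and 8.73, were split, with 2 within the range of the NaHS arrays and 1 within that of the CS + LPS arrays. The PPG mean was 8.34 ± 0.66 (SD, n = 3), against 7.54 ± 0.10 (SD, n = 3) in CS + LPS. When an array was left out this difference was 0.61 to 1.18, and it passed the fold change threshold in 1 such setting. The NaHS group was 1.38 higher than CS + LPS (SE 0.30, adjusted p = 0.0782) and 1.27 higher than control (SE 0.30, adjusted p = 0.135), past the fold change threshold but not the adjusted one. With slide as a block the difference from CS + LPS was 0.78 in Snai2 and 1.03 in Cdh5, and neither was called. In the same NaHS lungs Cdh1 was 0.14 above CS + LPS, a difference that did not pass a test. For PPG against CS + LPS, 0 of the 58 genes passed either threshold, beside 2.17% of all probes. An unadjusted p under 0.05 was reached by 5 in limma, beside 10.5% of all probes, and by 5 in the methods' t-test, beside 10.3%.

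**Figure D4:**
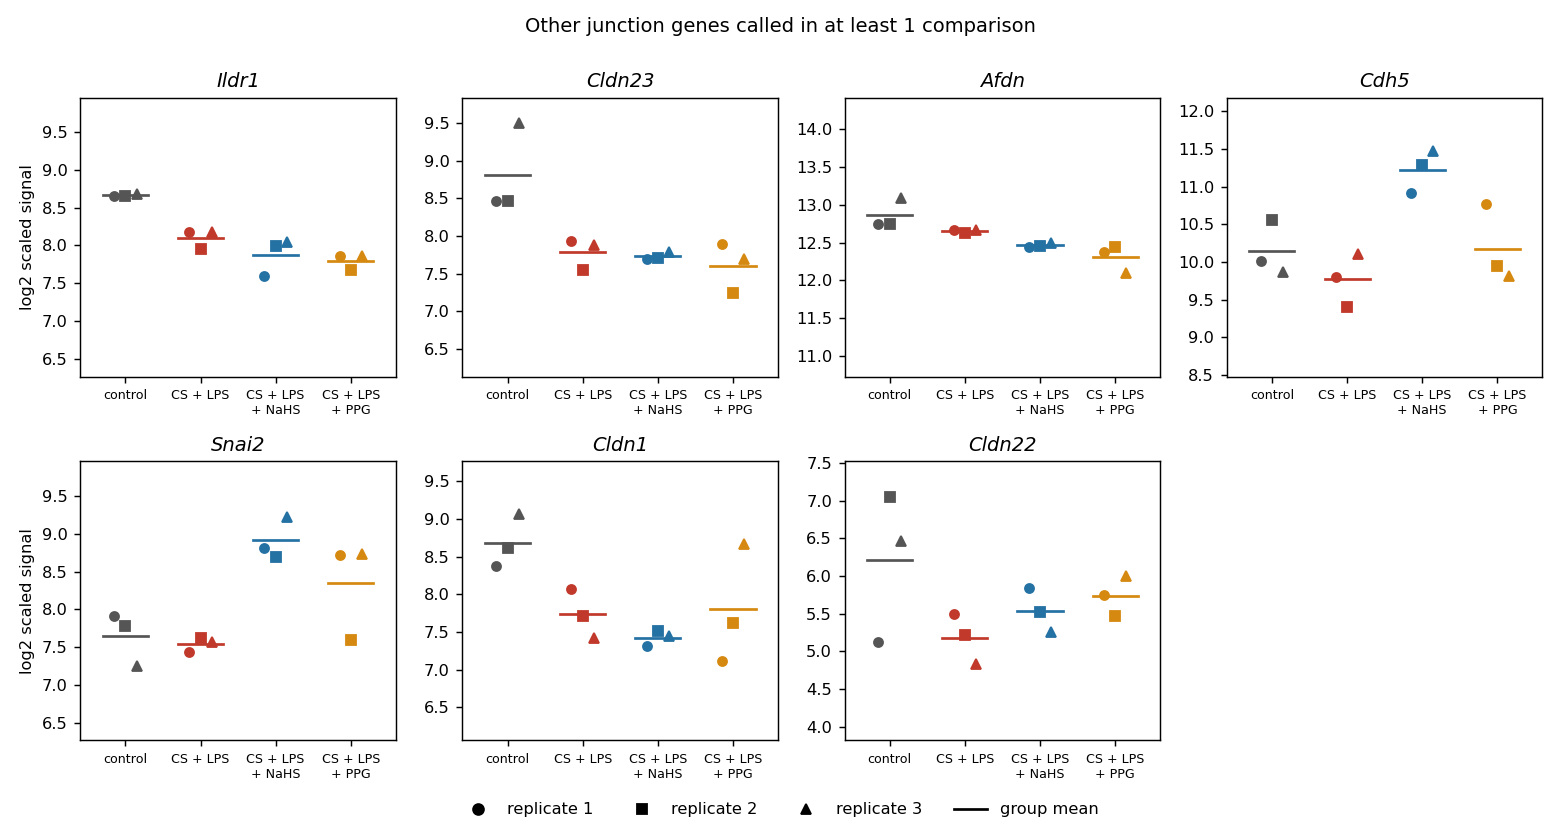
Scaled log2 signal (y axis) of the 7 other junction genes called in at least 1 comparison, on each of the 12 arrays by group (x axis), with symbols and lines as for the 9 genes above. The exposed arrays lie under the controls in Ildr1, Cldn23 and Afdn, and the 3 CS + LPS + NaHS arrays lie above all others in Cdh5, at 10.91 to 11.47.

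**Figure D5:**
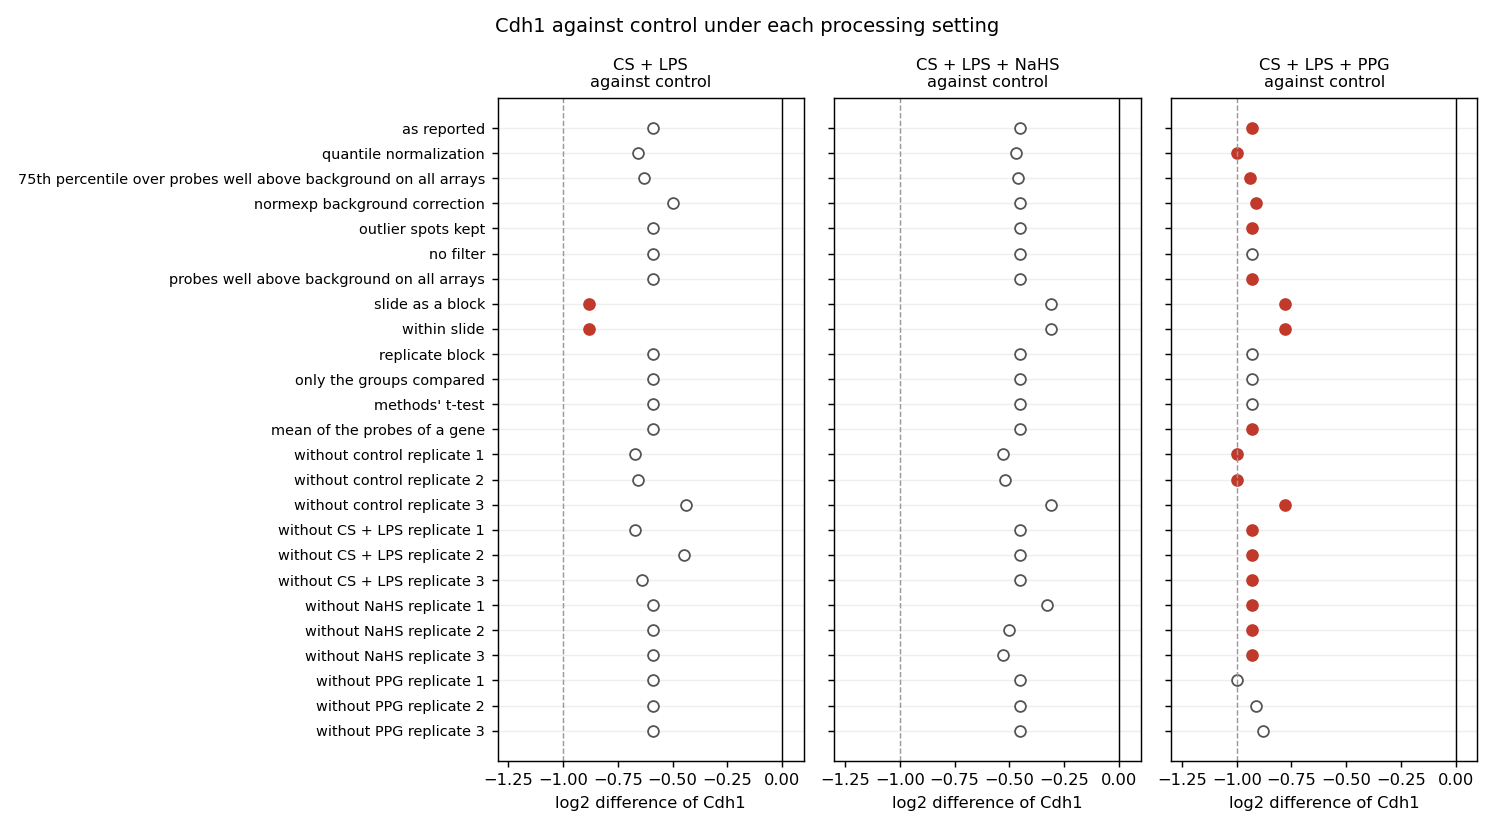
Log2 difference of Cdh1 from control (x axis) in each exposed group under each way of processing the arrays (y axis), with filled red points for an adjusted p under 0.05 and a dashed line for a fold change of 2. All values are below 0, from −0.88 to −0.44 for CS + LPS, −0.53 to −0.31 for CS + LPS + NaHS and −1 to −0.78 for CS + LPS + PPG.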

How the data were processed

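Total RNA of 12 rat lung samples (4 groups, 3 arrays each) was hybridised to Agilent one-colour arrays, and the deposited scanner files hold spot intensity as the authors extracted it with Agilent Feature Extraction version 10.7, per the submitters' processing notes, background-subtracted but not scaled between arrays. The authors then made lists of differential probes in GeneSpring. These 5 lists hold fold changes and p-values beside 60 columns of normalized signal and 60 of flags per sample, and were not used. The deposited spot flags, of another kind than intensity (well above background, saturated, outlier), served as filters.

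Here, control spots and outlier spots were left out, spots of a probe were averaged, and log2 intensity was scaled by each array's 75th percentile. A probe was tested where every array of some group had it well above background (21239 of 30367). All 12 arrays were fitted by group with limma 3.58.1 in R 4.3.3 (with version 1.17.8 of data.table), two-sided, with Benjamini-Hochberg adjustment over all tested probes. Calls were a fold change of at least 2 with p under 0.05, as in the study's methods, or an adjusted p under 0.05. Genes were named through the RefSeq accession of the probe, 1 most intense detected probe for each gene, and 12853 probes had no symbol. The fit was tested on simulated data. Figures were drawn with matplotlib 3.10.9 in Python 3.11.15.

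Genes named were the 9 junction genes, listed junction genes called in at least 1 of the 5 comparisons, and the 3 genes most correlated with a called junction gene. The junction genes and lists were chosen with earlier results of these data known. The number of arrays limits the precision, and an exact test of 3 against 3 arrays cannot go below a p of 0.1. Alternatives were the normalization, background correction, filters, slide and replicate blocks, the methods' t-test and leaving out each array.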

Additional observations from a re-analysis of the deposited data

How the results depend on the processing

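Over the settings tried, the values of the 9 genes kept their direction and side of the threshold in 978 cases, 63 moved, 11 gained a call, 7 lost one and 3 reversed. For the other junction genes, quantile normalization, normexp and slide as a block were planned. Their further settings were added after seeing the data, as were the values within a slide. The 7 losses were all Cdh1 in PPG against control, whose adjusted p ranged from 0.0213 to 0.179. Of the 9 genes, 1 was called there by adjusted p, and 0 with no filter, with only the groups compared and by the methods' t-test, and 0 to 1 when an array was left out. The replicate numbers did not pair the samples: the deviations of the 18 same-numbered pairs correlated at −0.308 to 0.139. With the replicate block 0 of the 9 genes and 1 of the other junction genes were called for PPG against control, against 1 and 3 without it.

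By fold change and p, PPG against control gave 1 gene of 9 after quantile normalization and 0 to 1 when an array was left out, and CS + LPS against control gave 0 to 1. With slide as a block, which rests on control replicate 3, the counts for CS + LPS against control were 1 by fold change and 3 by adjusted p (the same within the slide), for NaHS against CS + LPS 1 and 1, and for PPG against CS + LPS 1 and 2. Of all probes, 22.7% and 41.5%, 19.9% and 23%, and 19.4% and 22.5% were called in these fits. The reversed values under that block were −0.74 (Cldn18) and 0.97 (Cldn23) for NaHS, and 1.00 (Cldn4) and −0.87 (Cldn18) for PPG against CS + LPS. The cause was not tested.

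For the other junction genes, the 2 called in CS + LPS against control became 1 with quantile normalization, normexp, only the groups compared or the methods' t-test, 17 with slide as a block or within the slide (beside 43% of all probes), and 0 to 4 when an array was left out. The 4 in NaHS against control became 2 with normexp, the slide block or within the slide, and 2 to 5 when an array was left out. The 3 in PPG against control became 6 with normexp, 5 with outlier spots kept, 1 with no filter, 7 with only probes well above background on all arrays, 1 with only the groups compared or the methods' t-test, and 2 to 6 when an array was left out. With the slide block the 2 in NaHS against CS + LPS became 6 and the 0 in PPG against CS + LPS became 10 (beside 27% and 26.3% of all probes), with 0 to 1 when an array was left out. Normexp used the median signal, and it moved the median of all probes by at most −0.10. With no filter 30367 probes were tested, and dim probes near background limit what can be called.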
